A study of Mus musculus with 7 samples.

Results

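The 10 genes described here handle iron and copper in the liver. They are *Hamp*, *Hfe*, *Tfr2* and *Bmp6*, which make or control hepcidin, *Trf* and *Tfrc* of the transferrin cycle, the iron transporters *Slc11a2* and *Slc40a1*, and the copper genes *Atp7b* and *Cp*. They were chosen by name, with earlier results of these data known, and taken as the probe sets that carry one of these symbols and no other. Each gene was measured by 1 probe set, so they are 10 of the 28853 probe sets on the array and 10 of the 19938 genes tested.

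The study asked which mRNAs of hepatocytes change when the miRNA miR-709 is raised. Primary hepatocytes of C57BL/6J mice were transfected with 1 µg of a miR-709 mimic (replicates A, B, C and D) or with 1 µg of Cel-239b, a worm miRNA that served as the control (replicates B, C and D), and their RNA was taken after 24 h and hybridised to Affymetrix Mouse Gene 1.0 ST arrays, 1 for each replicate. Both groups carried no engineered allele in the labels and shared the same culture conditions, in a medium with serum, insulin and dexamethasone. The sources used here do not say whether the replicates came from separate mice or isolations, and a p-value here speaks of the differences among these 7 arrays, some of which may be technical. Values are log2 signals after robust multi-array averaging (RMA), where a difference of 1 is a doubling. The signal of a probe set depends on its probes as well as on its mRNA, so levels are compared here between arrays and never between genes.

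Array medians lay between 5.04 and 5.07, and the residual SD of the median gene was 0.102. The 8 hepatocyte markers measured averaged 12.0 to 12.1 on the Cel-239b arrays and 12.1 to 12.3 on the miR-709 arrays, and *Cps1* (0.68, adjusted p = 0.0136) and *Tat* (0.62, adjusted p = 0.00763) of them passed the test as higher. Markers of sinusoidal endothelial cells averaged 4.82 to 4.96 with Cel-239b and 4.87 to 4.93 with miR-709, and those of Kupffer cells and leukocytes 4.58 to 4.63 and 4.59 to 4.67. None of the 10 markers in either list passed the test, but only 0 and 1 of them had a mean signal over 6, and dim probe sets hold fewer calls. Of 10 stellate cell markers, *Vim* and *Acta2* were lower with miR-709, as was *Krt19* of 5 cholangiocyte markers, and the means of these lists ran from 6.06 to 6.12 and 6.04 to 6.20 with Cel-239b against 5.85 to 5.93 and 5.61 to 5.92 with miR-709. These means include *Acta2* (log2 fold change -1.34), *Vim* (-0.40) and *Krt19* (-1.23). The other 8 stellate and 4 cholangiocyte markers did not pass the test. Among them only *Reln* (mean signal 6.1) and *Sox9* (7.71) lay over 6. The rest were dim, so their lack of a call says little about these cell types. Median log2 fold changes of the 2 lists were -0.05 and -0.29, and the highest were 0.095 (*Des*) and 0.088 (*Epcam*). In such bulk RNA, fewer cells of a type and less RNA per cell cannot be told apart. The miR-709 arrays were not alike among themselves. The mean of 13 interferon response genes, relative to its Cel-239b mean, was -0.14 on replicate A and -0.05 on B but 1.03 on both C and D, and all 13 genes had their highest signals on C and D. Among the controls it was -0.18, -0.08 and 0.26 on B, C and D.

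Hepatocytes are the main source of hepcidin, the peptide hormone encoded by *Hamp*, which binds the iron exporter ferroportin (*Slc40a1*) on other cells and causes its breakdown. They read plasma iron through transferrin: the HFE protein and transferrin receptor 2 (*Tfr2*) sense iron-loaded transferrin, and bone morphogenetic protein 6 (*Bmp6*), made in the liver largely by sinusoidal endothelial cells, acts on hepatocytes through SMAD proteins to raise *Hamp* transcription, as interleukin-6 does through STAT3. Iron enters through transferrin receptor 1 (*Tfrc*) and leaves the endosome through the divalent metal transporter DMT1 (*Slc11a2*). Iron regulatory proteins stabilise the *Tfrc* mRNA, and that of some *Slc11a2* isoforms, when cell iron is low. Copper is loaded onto ceruloplasmin (*Cp*), a ferroxidase secreted by hepatocytes, by the copper pump ATP7B.

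Promoter sequence from RefSeq (build GRCm38.p6, 250 bases before to 50 bases after a transcription start) was searched for 6 of the 10 genes: *Hfe*, *Tfr2*, *Bmp6*, *Tfrc*, *Atp7b* and *Cp*. The stretches below are shown because *Tfrc* was the member that was higher with miR-709 by the test. Capitals mark motif letters. GGCGCC is the core of the BMP-responsive element, and ACGTG is the core of the hypoxia response element and also lies within the E-box CACGTG. The first comes from chr16:32608795-32608824 and the second from chr16:32608882-32608911 (both plus strand).
Tfrc, upstream: acctgccgccttGGCGCCttttctaggcta
Tfrc, at the start: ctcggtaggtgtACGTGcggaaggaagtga

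In *Tfrc*, the first letter of GGCGCC lay 89 bases and that of ACGTG 2 bases before a start site, so ACGTG spanned the start. Both strands were searched. Over 32851 promoter windows of this length, GGCGCC stood in 11.9% and ACGTG in 19.6%. The 6 genes had 10 windows, since *Tfr2*, *Tfrc* and *Cp* have several start sites, and windows of a gene can overlap. GGCGCC stood in 1 of the 10, of *Tfrc*, and ACGTG in 5, of *Bmp6*, *Tfr2* and *Tfrc*. These matches describe letters in the sequence and do not show that a factor was bound.

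Of the 10 genes, *Tfrc* rose and *Slc11a2* fell with miR-709, and the other 8 did not pass the test (limma, Benjamini-Hochberg adjusted p under 0.05 over all genes). Of all genes tested, 1.81% were called higher and 1.47% lower, or 3.28% in either direction. The miR-709 and Cel-239b arrays did not overlap for 7 members, against 12.3% of all genes. In 5 of these (*Hfe*, *Tfr2*, *Tfrc*, *Slc40a1* and *Cp*) the miR-709 arrays all lay above, against 7.44% of all genes, and in 2 (*Slc11a2* and *Bmp6*) all below, against 4.91%. Dim probe sets hold fewer calls, and 9 of the 10 members had a mean signal over 6. Among the 8635 genes over that level, 6.76% were called (3.76% higher and 3.0% lower) and 22.0% did not overlap (13.8% above and 8.21% below). The median log2 fold change of the members was 0.13, against 0.01 for all genes and 0.03 for the brighter ones, and the median of its size was 0.23, against 0.08 and 0.10. As the members were chosen with earlier results of these data known, these shares describe them and are not a test of them as a set. With no adjustment, 7 members had p under 0.05, as did 2987 of all genes. The methods' 1-way analysis of variance called *Tfrc* alone among the members after adjustment (adjusted p = 0.0421), and 226 of all genes. The study's methods name no such adjustment. It was added here, so these calls are not those of the study. It gave an unadjusted p under 0.05 to 7 members and to 2485 of all genes.

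**Figure D1:**
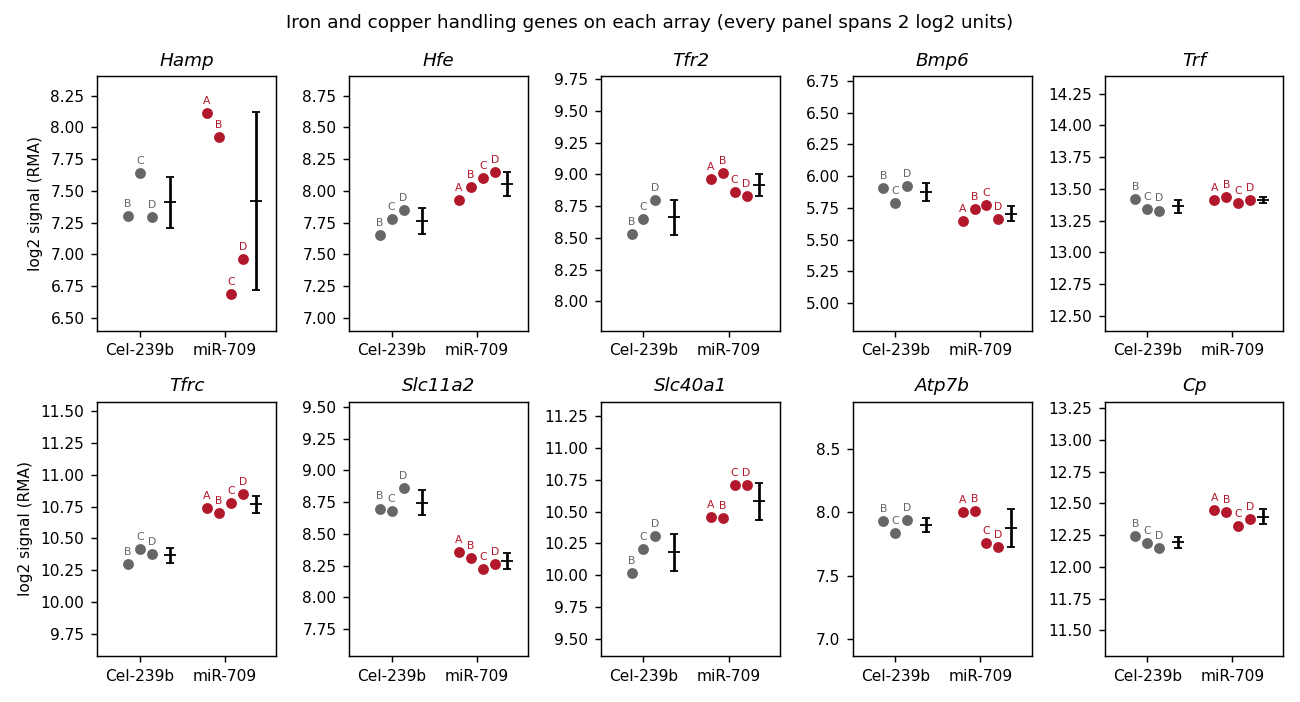
Log2 signal (RMA, vertical axis) of each of the 10 genes on the 3 Cel-239b arrays (grey) and the 4 miR-709 arrays (red), lettered by replicate, with the mean and SD of each group beside the points. Each panel spans 2 log2 units, so heights can be compared across panels but levels cannot: *Tfrc* (10.30 to 10.42 against 10.70 to 10.85) and *Slc11a2* (8.68 to 8.86 against 8.22 to 8.36) separate by group, while *Hamp* splits within miR-709.

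*Hamp*, the hepcidin gene, had signals of 7.30, 7.64 and 7.29 on Cel-239b replicates B, C and D, and 8.11, 7.92, 6.69 and 6.96 on miR-709 replicates A, B, C and D. Replicates A and B lay above every control and C and D below every control, so the groups overlapped although no single array of miR-709 fell inside the range of the controls. The means were 7.41 ± 0.20 (SD, n = 3) and 7.42 ± 0.70 (SD, n = 4), a log2 fold change of 0.01 ± 0.32 (SE) with a 95% interval of -0.70 to 0.72 (limma adjusted p = 0.994). As folds, this interval reached from 1.63-fold lower to 1.65-fold higher. Its residual SD within treatments, 0.557, ranked 12 of the 19938 genes, and of the 11 genes above it, 10 had C and D higher than the 5 other arrays. Of the 11, 6 are in the interferon list (*Ifit3*, *Rsad2*, *Cxcl10*, *Ifit1*, *Oasl2* and *Mx2*), so *Hamp* was low on the arrays on which interferon genes were high. The part of the interferon difference in the *Hamp* difference was not tested. Without C and D the log2 fold change was 0.61 (adjusted p = 0.134), and over all alternatives it ran from -0.22 to 0.61 with no call.

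*Hfe* encodes the HFE protein, whose loss causes iron overload. It read 7.65, 7.78 and 7.85 on the Cel-239b arrays and 7.93, 8.03, 8.10 and 8.15 on the miR-709 arrays. Every miR-709 array was above every control, the closest pair being 7.93 and 7.85. The log2 fold change was 0.29 ± 0.07 (SE; 95% interval 0.13 to 0.46, adjusted p = 0.0775), a 1.22-fold difference that missed the threshold, but passed it when dim genes were left out (adjusted p = 0.0419 at a mean signal of at least 5 and 0.0316 at 6). *Tfr2*, its partner in sensing, read 8.53, 8.65 and 8.80 on the controls and 8.96, 9.01, 8.86 and 8.83 with miR-709. These groups also did not overlap, by 0.03 at the closest pair, and the log2 fold change of 0.26 ± 0.08 (SE) did not pass (adjusted p = 0.145).

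*Bmp6*, the ligand, had signals of 5.91, 5.79 and 5.92 with Cel-239b and 5.65, 5.74, 5.77 and 5.66 with miR-709. The miR-709 arrays were the lower ones without overlap, by 0.02 at the closest pair, with a log2 fold change of -0.17 ± 0.06 (SE; adjusted p = 0.23). None of the markers of endothelial cells, its known source in liver, passed the test. None of them had a mean signal over 6 either, and dim probe sets hold fewer calls, so this says little about these cells. Their part in these values was not tested.

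*Tfrc*, transferrin receptor 1, which takes up iron-loaded transferrin, was 1.32-fold higher with miR-709. Its signals were 10.30, 10.42 and 10.38 on the Cel-239b arrays and 10.74, 10.70, 10.78 and 10.85 on the miR-709 arrays, for means of 10.37 ± 0.06 (SD, n = 3) and 10.77 ± 0.06 (SD, n = 4). The 4 treated arrays lay within 0.15 of each other and 0.28 or more above every control. The log2 fold change was 0.40 ± 0.06 (SE; 95% interval 0.26 to 0.54, limma adjusted p = 0.0073). The call held under 19 of 20 alternatives, and was lost when miR-709 C and D were both left out (0.35, adjusted p = 0.099), which left 2 treated arrays. Its partner *Trf*, the plasma iron carrier transferrin, read 13.42, 13.34 and 13.33 against 13.41, 13.44, 13.39 and 13.41. The *Trf* groups overlapped, and the log2 fold change of 0.05 had a 95% interval of -0.07 to 0.17 (adjusted p = 0.732).

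*Slc11a2*, which carries ferrous iron out of the endosome after transferrin uptake, was 1.37-fold lower with miR-709. It read 8.70, 8.68 and 8.86 on the Cel-239b arrays and 8.36, 8.31, 8.22 and 8.26 on the miR-709 arrays. All 4 treated arrays lay below all controls, by 0.32 at the closest pair, more than the range within either group (0.18 and 0.14). The means were 8.75 ± 0.10 (SD, n = 3) and 8.29 ± 0.06 (SD, n = 4), with a log2 fold change of -0.46 ± 0.07 (SE; 95% interval -0.61 to -0.31, limma adjusted p = 0.00567). The call held under 18 of 20 alternatives. It was lost with the methods' 1-way analysis of variance (adjusted p = 0.0516) and without C and D (-0.41, adjusted p = 0.104). *Tfrc* and *Slc11a2*, which act one after the other in iron uptake, thus moved in opposite directions.

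*Slc40a1*, ferroportin, the only known iron exporter of mammalian cells, read 10.02, 10.21 and 10.31 with Cel-239b and 10.46, 10.45, 10.71 and 10.71 with miR-709. The groups did not overlap, and C and D were the highest of the 7 arrays. Its log2 fold change of 0.40 was as large as that of *Tfrc*, but its spread was wider, with an SD of 0.15 in each group against 0.06. The SE was 0.10, the 95% interval ran from 0.19 to 0.62, and the adjusted p of 0.0617 missed the threshold. It passed under 4 of 20 alternatives, among them limma with an intensity trend (0.0443) and the tests limited to mean signals of at least 5 (0.0311) and 6 (0.0237).

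*Cp*, the copper-dependent ferroxidase ceruloplasmin that works with ferroportin, read 12.24, 12.19 and 12.15 on the controls and 12.45, 12.43, 12.32 and 12.38 with miR-709. Its groups did not overlap, by 0.08 at the closest pair. The log2 fold change of 0.20 ± 0.06 (SE; 95% interval 0.07 to 0.33) did not pass the test (adjusted p = 0.121), and did with the intensity trend (0.0398). *Atp7b*, the copper pump mutated in Wilson disease, read 7.93, 7.84 and 7.94 against 8.00, 8.01, 7.76 and 7.73. Here A and B were the highest of the 7 arrays and C and D the lowest, the same split as in *Hamp* but narrower, with a log2 fold change of -0.03 (95% interval -0.22 to 0.16, adjusted p = 0.916). Without C and D it was 0.10 (adjusted p = 0.624).

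**Figure D2:**
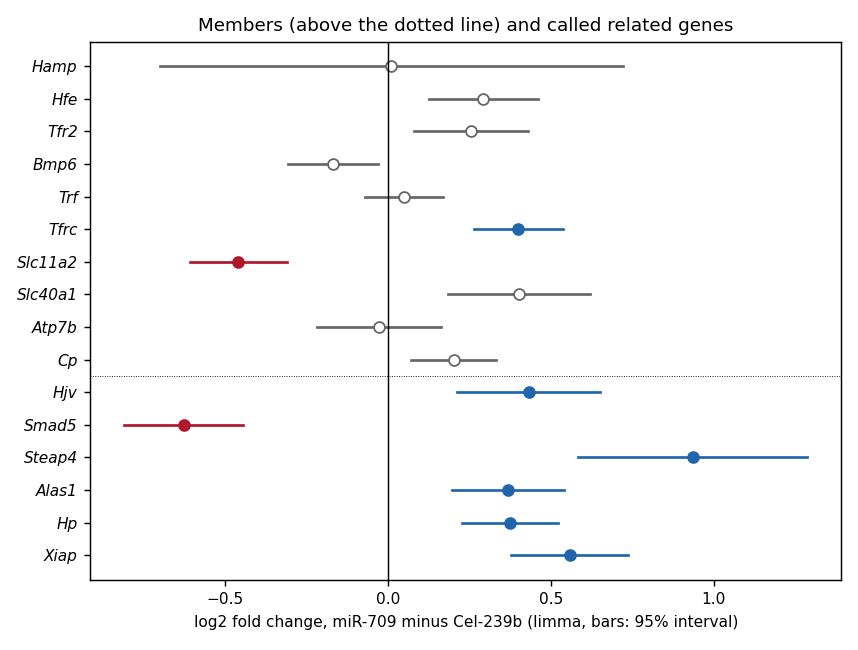
Log2 fold change (miR-709 minus Cel-239b, horizontal axis) with its 95% interval from limma for the 10 members (above the dotted line) and the 6 related genes that passed the test (below it). Filled points passed at an adjusted p under 0.05 (blue higher, red lower) and open points did not; the widest interval is that of *Hamp* (-0.70 to 0.72).

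Replicates C and D were the extreme arrays for 6 of the 10 members. They gave the highest signals of *Hfe*, *Tfrc* and *Slc40a1* and the lowest of *Slc11a2*, beside the lowest of *Hamp* and *Atp7b*. Of all genes, 7.31% had C and D as the highest arrays and 5.54% as the lowest. The groups of *Hfe*, *Tfrc*, *Slc40a1* and *Slc11a2* did not overlap, so C and D could be extreme there only in the direction of the difference. The shares just given are of all genes, not of genes whose groups did not overlap. *Tfr2* and *Cp* had A and B as their highest arrays, and *Bmp6* and *Trf* had neither pair at an extreme beyond all other arrays. Among related genes, chosen here after their values were seen, *Id1*, a target of BMP signalling, read 7.36, 7.39 and 7.40 with Cel-239b and 7.53, 7.69, 7.20 and 7.33 with miR-709, with A and B above all controls and C and D below them as in *Hamp*. Other known targets of that signalling did not share this split: *Smad7* read 6.82, 6.70, 6.74 and 6.93 on A to D, all below its controls (6.94 to 7.02). *Atoh8* read 6.66, 6.50, 6.32 and 6.50 against 6.58 to 6.66, and *Smad6* 4.67, 4.58, 4.58 and 4.59 against 4.58 to 4.77. The mean *Smad6* signal, 4.64, was below the lowest array median (5.04), so this dim probe set says little about a split. *Slc39a14*, which takes up iron not bound to transferrin, read 9.74, 9.60 and 9.71 against 9.87, 9.91, 9.63 and 9.55. The means of 14 acute phase genes, relative to their Cel-239b mean, were 0.12, 0.14, 0.02 and 0.06 on A to D, and those of the hepatocyte markers 0.22, 0.25, 0.14 and 0.10. Their part in these differences was not tested.

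**Figure D3:**
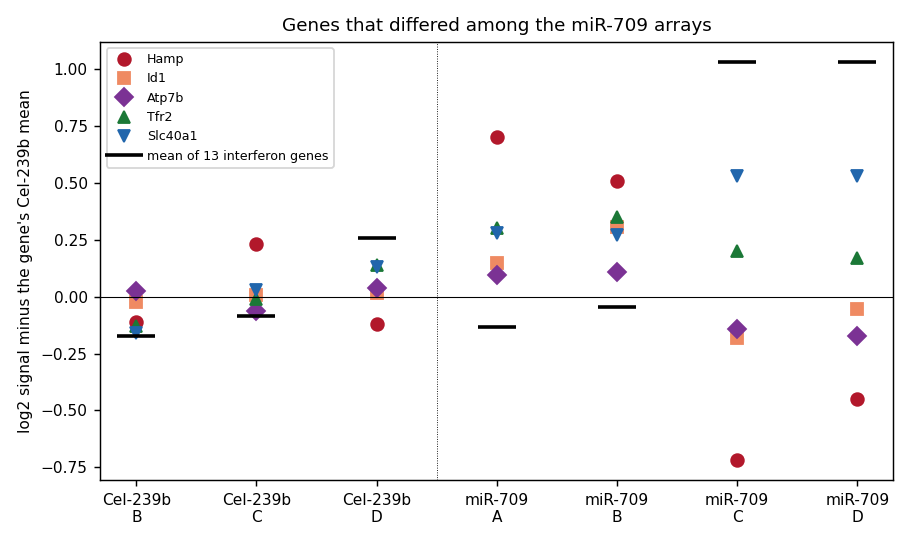
Log2 signal minus the gene's Cel-239b mean (vertical axis) on each of the 7 arrays (horizontal axis) for *Hamp*, *Id1*, *Atp7b*, *Tfr2* and *Slc40a1*, with the mean of 13 interferon response genes as black bars. On miR-709 C and D the bars stand at 1.03 and *Hamp* lies below all controls, while on A and B the bars lie at -0.14 and -0.05 and *Hamp* above all controls.

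*Hamp2*, the second hepcidin gene of mice, did not follow *Hamp*. It read 5.67, 6.09 and 6.15 on the Cel-239b arrays and 5.67, 5.58, 5.55 and 5.58 on the miR-709 arrays, where the 4 values lay close together and replicate B of the controls lay with them. The log2 fold change of -0.38 ± 0.11 (SE) did not pass (adjusted p = 0.119). The copies are closely related in sequence, and how far the probes of each measure the other was not tested.

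The genes with profiles most like the called members were found by the root mean square difference, over the 7 arrays, of log2 signal minus the gene's Cel-239b mean. Nearest to *Tfrc* were *Drg2* (0.0338), *Cyb5b* (0.0452) and *Abraxas2* (0.0455), with log2 fold changes of 0.41, 0.36 and 0.35. For *Slc11a2* they were *Zscan26* (0.0493), *Flcn* (0.0539) and *Apobec1* (0.0624), with log2 fold changes of -0.47, -0.48 and -0.39. None of these 6 is in the iron or copper lists.

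Around the members, 65 of 68 listed iron genes and 18 of 19 listed copper genes were measured. *Smad5* alone fell, and *Hjv*, *Steap4*, *Alas1* and *Hp* rose among the iron genes, while 60 did not pass the test. Of the copper genes *Xiap* rose and 17 did not pass. Of all genes 3.28% were called, and of those with a mean signal over 6, 6.76%. Among the measured genes, 53 iron and 15 copper genes lay over that level. The median log2 fold changes were 0.04 and 0.05, against 0.01 for all genes. An unadjusted p under 0.05 (limma) was found for 18 iron and 3 copper genes. It was found for 2987 of all 19938 genes and for 2244 of the 8635 brighter ones. The methods' analysis of variance called none of either list after adjustment.

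In the BMP and SMAD route to hepcidin, 1 of 19 genes fell and 1 rose. An unadjusted p under 0.05 (limma) was found for 8 of the 19, against 2987 of all 19938 genes and 2244 of the 8635 brighter ones. *Smad5*, a transducer of BMP receptors, read 7.65, 7.56 and 7.42 on the controls and 6.79, 6.98, 6.86 and 7.04 with miR-709, a 1.54-fold lower signal (log2 fold change -0.63 ± 0.08 SE, adjusted p = 0.00324). Its groups lay 0.38 apart. The call was lost with the analysis of variance (0.0611) and without C and D (0.0573), where 2 treated arrays were left and the log2 fold change was -0.66. *Smad1*, which acts in parallel with it, lay the other way, at 7.12, 7.13 and 6.89 against 7.31, 7.34, 7.28 and 7.28, and did not pass (0.26, adjusted p = 0.104). *Hjv*, hemojuvelin, the BMP coreceptor on hepatocytes, read 6.62, 6.53 and 6.48 against 6.99, 7.23, 6.84 and 6.84. It was called at 0.43 ± 0.10 (SE, adjusted p = 0.0474) but held under only 8 of 20 alternatives. The call was lost when any single array was left out (adjusted p between 0.0571 and 0.182). With all 7 arrays it was lost with all probe sets (0.0509), the replicate block (0.0664), array weights (0.0708) and the analysis of variance (0.239). The receptor gene *Acvr1* did not pass (-0.20, adjusted p = 0.153). The median over the 19 genes was -0.08.

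None of the 8 genes of iron storage, sensing and chaperones passed the test, and none had an unadjusted p under 0.05 (limma) or was called by the analysis of variance. Their log2 fold changes ran from -0.09 (*Pcbp1*) to 0.07 (*Fbxl5*). The ferritin subunits *Fth1* and *Ftl1*, named here after their values were seen, differed by 0.04 (95% interval -0.09 to 0.17) and 0.03 (-0.10 to 0.16). *Ireb2*, one of the iron regulatory proteins, differed by 0.06 (-0.11 to 0.22).

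Among 10 genes of iron uptake, reduction and export, *Steap4*, a metalloreductase that reduces iron and copper, had the largest difference in the iron and copper lists. Its signals were 8.30, 8.01 and 7.95 with Cel-239b and 9.33, 9.23, 8.70 and 8.83 with miR-709, 1.91-fold higher (0.94 ± 0.16 SE, adjusted p = 0.0112). All treated arrays were above all controls, A and B by more than C and D. The call was lost with the analysis of variance (0.16), without Cel-239b C (0.0812) and without Cel-239b D (0.0599). *Steap2*, *Cybrd1* and *Steap1* did not pass (adjusted p from 0.307 to 0.557). Of the 10 genes, 2 had an unadjusted p under 0.05 (limma).

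Of 18 genes of haem synthesis, transport and breakdown, 2 rose, and 6 had an unadjusted p under 0.05 (limma). *Hp*, haptoglobin, which binds free haemoglobin in plasma and is also an acute phase protein, read 12.28, 12.29 and 12.27 against 12.72, 12.74, 12.53 and 12.63 (0.38 ± 0.07 SE, adjusted p = 0.0137). The controls lay within 0.02 of each other and all treated arrays above them. *Hp* held under 16 of 20 alternatives, with an adjusted p of at most 0.0855, and its losses included the analysis of variance (0.0731) and leaving out Cel-239b B (0.056) or C (0.0596). *Alas1*, the rate-limiting enzyme of haem synthesis in liver, read 10.55, 10.60 and 10.66 against 10.90, 10.84, 11.04 and 11.11 (0.37 ± 0.08 SE, adjusted p = 0.031). It held under 10 of 20 alternatives and was lost without each array but miR-709 B (0.0593 to 0.124). *Blvra*, *Ppox* and *Flvcr2* did not pass (adjusted p from 0.126 to 0.324). In mitochondrial iron handling and iron-sulfur assembly, 0 of 10 genes were called, 2 had an unadjusted p under 0.05 (*Slc25a28* at 0.15 and *Glrx5* at 0.13), and the analysis of variance called 0.

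Of the copper genes, *Xiap*, which encodes an inhibitor of apoptosis that also binds the copper protein COMMD1, read 7.70, 7.53 and 7.38 on the controls and 8.03, 8.10, 8.17 and 8.08 with miR-709 (0.56 ± 0.08 SE, 1.47-fold, adjusted p = 0.00535). Its groups lay 0.33 apart. The call was lost with the analysis of variance (0.073) and without C and D (0.113), where 2 treated arrays were left and the log2 fold change was 0.53. *Mtf1*, the metal-responsive factor that drives metallothionein genes, did not pass (0.16, adjusted p = 0.196), nor did *Sco1* (-0.15) or *Cox17* (-0.14), which carry copper to cytochrome oxidase. The metallothioneins *Mt1* and *Mt2*, again named after their values were seen, both differed by -0.02, with 95% intervals of -0.18 to 0.13 and -0.14 to 0.11.

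**Figure D4:**
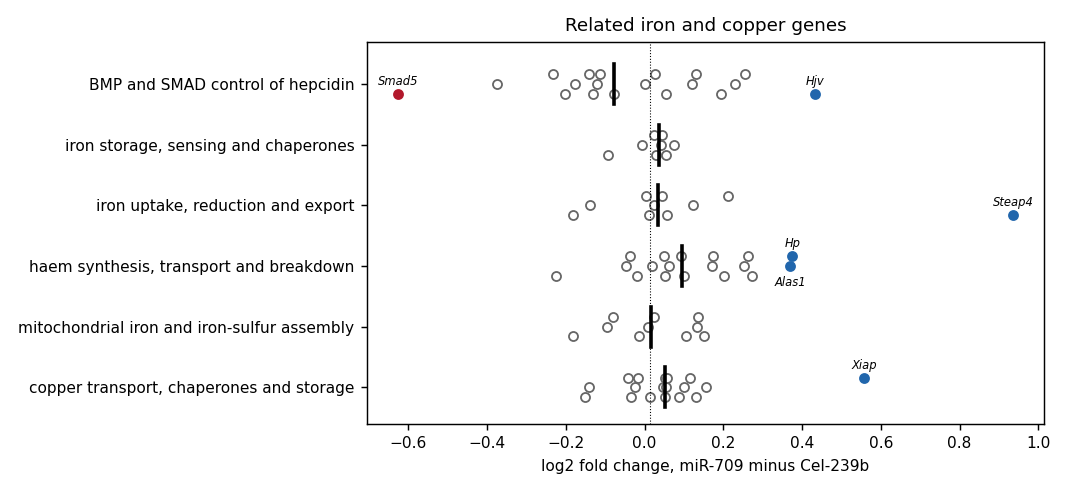
Log2 fold change (miR-709 minus Cel-239b, horizontal axis) of each measured gene in the 6 related lists (vertical axis). Filled points passed the test and are named, black bars are list medians (-0.08 to 0.10) and the dotted line is the median of all genes (0.01).

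**Figure D5:**
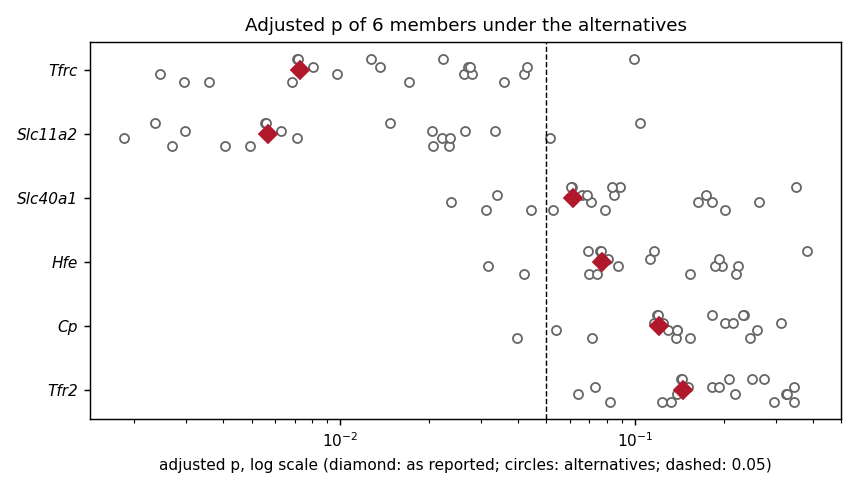
Adjusted p (log axis) of 6 members as reported (diamonds) and under the 20 alternatives (circles), with the threshold of 0.05 dashed. *Tfrc* and *Slc11a2* lie left of the line in all but 1 and 2 alternatives, and *Slc40a1*, *Hfe*, *Cp* and *Tfr2* pass it in 4, 2, 1 and 0.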

How the data were processed

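The authors hybridised RNA of each replicate to 1 Affymetrix Mouse Gene 1.0 ST array. The deposited table holds, for every probe set, a log2 signal from RMA (background correction, quantile normalization, summary of probes), with Partek also named in the submitters' processing notes; versions are not given in the sources used here. Arrays give no read depth, and their number limits the precision (median SE of a log2 fold change 0.076). Probe sets were named through the platform annotation: 21789 of 28853 had 1 symbol, 1621 several and 5443 none, and 21698 symbols were matched to RefSeq by gene number. Of 999 genes with several probe sets the brightest was used. The 19938 genes were compared with limma 3.58.1 (R 4.3.3), which was tested on simulated data, in a fit of both groups without covariates, with Benjamini-Hochberg adjustment over all genes and calls at 0.05. This gave 361 higher and 293 lower genes. The methods' 1-way analysis of variance on the same values called 226 genes after the same adjustment, which the methods do not name. Array pairs correlated at 0.9965 to 0.9979 within and 0.9951 to 0.9966 between groups, and no arrays were identical. Alternatives were the test, the probe set summary, filters on dim genes, normalization, array weights, the replicate letter and each array left out, and, chosen after seeing the data, miR-709 C and D left out together. The text names every member, every called gene of the related lists and up to 3 more of each by lowest p, besides genes marked as chosen after their values were seen. Members and lists were chosen with earlier results of these data known. Some promoter sequence is not reported here.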

Additional observations from a re-analysis of the deposited data

How the results depend on the processing

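Member calls were 1 lower and 1 higher as reported, and stayed so when each array was left out (range 1 to 1). The methods' analysis of variance called 0 lower, and leaving out miR-709 C and D together called 0 lower and 0 higher. Over all genes, leaving out C and D together left 92 lower and 76 higher calls, against 293 and 361 as reported. More members were called higher with limma-trend (3), at mean signals of at least 5 (3) and 6 (3), and with the replicate letter as a fixed block (2, *Slc40a1* added at 0.0339; among related genes *Hp* was lost at 0.0855). Over all genes the letters showed little sign of pairing, with deviations of same-lettered arrays correlating at 0.019, 0.017 and 0.046. The highest correlation, 0.078, was that of Cel-239b C with miR-709 A. Pairing in a part of the genes was not tested. The block moved the calls over all genes to 221 lower and 180 higher. Of related iron genes, lower calls went to 0 (analysis of variance), 0 (without C and D) and 1 to 2 (each array left out), and higher calls to 0 (analysis of variance), 1 (block), 2 (without C and D) and 0 to 3 (each array left out, lowest without Cel-239b C). The related copper gene called higher was lost with the analysis of variance (0) and without C and D (0). *Hamp* changed sign with quantile normalization (-0.003), cyclic loess (-0.019), the block (-0.22) and single arrays left out (-0.22 to 0.25), and *Atp7b* with single arrays left out (-0.073 to 0.02, above 0 without C at 0.01 and without D) and without both C and D (0.10). The cause was not tested, except that leaving out arrays leaves fewer samples. Over 16 single genes, 266 of 319 alternative values kept direction and call, 36 lost the call, 7 gained it and 10 changed sign. Quantile normalization gave 335 higher and 334 lower genes, cyclic loess 304 and 333. *Bmp6* was too dim for the filter at 6. The signals carry no detection values, so how far *Bmp6* stood above background is unknown.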
